A study of Mus musculus with 3 samples.

Results

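The genes described are 4 members of the mouse Ms4a family, Ms4a6b, Ms4a6c, Ms4a6d and Ms4a7, out of 19938 genes measured in cultured embryonic kidneys. They were chosen by name after their log2 values in these same samples were known, so those values are a description and nothing below is a test of the choice. Each gene is read by 1 probe set annotated with that symbol alone. Kidneys of C57BL/6 embryos at embryonic day 11.5 were kept on Transwell filters for 48 h in 1 of 3 media: serum-free DMEM with retinoic acid, the active derivative of vitamin A (retinoic acid), serum-free DMEM alone (serum-free), and DMEM with 10% FBS, fetal bovine serum (serum). RNA of each medium went onto 1 Affymetrix Mouse Gene 1.0 ST array, which makes 3 arrays without replicates. No difference therefore has an error or a test, and precision is limited by the number of arrays. The dose of retinoic acid, the number of kidneys behind each array and the sex of the embryos are not stated in the labels.

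Ms4a genes encode small proteins that cross the cell membrane several times. The family's best known members are Ms4a1, which encodes CD20 of B cells, and Ms4a2, which encodes the beta chain of the IgE receptor of mast cells. Other members are made by macrophages, phagocytes that enter the embryonic kidney early in its growth. In mouse macrophages the Ms4a6d protein pairs with Vsig4 and restrains the Nlrp3 inflammasome, and mouse Ms4a6b was described as a partner of the receptor Tnfrsf18 (GITR) in T cells. In humans MS4A7 is associated with the maturation of monocytes into macrophages.

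The genes of the family lie side by side on mouse chromosome 19. Promoter windows, running from 250 bases before to 50 bases after an annotated start, were read from RefSeq (GRCm38.p6) for 3 of the 4 members, Ms4a6b, Ms4a6c and Ms4a7. The windows of Ms4a6b (chr19:11518309-11518608, plus strand) and Ms4a6c (chr19:11469118-11469417, plus strand) are shown 5′ to 3′ because they are near copies of each other. Capitals mark the runs of at least 12 bases that are identical in the alignment of the 2 windows.
Ms4a6b: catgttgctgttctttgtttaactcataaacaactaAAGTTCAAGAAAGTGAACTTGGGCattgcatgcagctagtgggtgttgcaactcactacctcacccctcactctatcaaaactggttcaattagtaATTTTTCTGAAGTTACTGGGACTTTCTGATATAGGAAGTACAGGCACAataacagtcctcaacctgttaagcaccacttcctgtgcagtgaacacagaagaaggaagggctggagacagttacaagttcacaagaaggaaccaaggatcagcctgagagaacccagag
Ms4a6c: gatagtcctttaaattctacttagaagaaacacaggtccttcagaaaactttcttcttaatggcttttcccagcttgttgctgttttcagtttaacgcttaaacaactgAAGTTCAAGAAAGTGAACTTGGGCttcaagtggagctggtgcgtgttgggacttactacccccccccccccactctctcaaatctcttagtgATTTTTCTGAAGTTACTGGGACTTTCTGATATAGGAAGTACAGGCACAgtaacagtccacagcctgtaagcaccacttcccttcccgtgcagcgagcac
The 2 windows matched at 189 of 220 aligned bases (85.9%). Their longest identical run was 48 bases, which ended 71 bases before the start of Ms4a6b and 2 bases before that of Ms4a6c. Both Ms4a7 windows were unlike them, with 60.5% to 67.9% of aligned bases identical and no identical run above 8 bases. Likeness of promoter windows was not limited to genes with signal on the arrays, since the windows of Ms4a4c and Ms4a4b, which were below the level floor throughout, matched at 228 of 282 aligned bases (80.9%).

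Motifs were searched on both strands of these windows. GAGGAAGT, a form of the PU.1 site, was in none of the 4 member windows and in 3.20% of all 32851 windows. The shorter AGGAAGT, which was added after the sequences were read and is part of GAGGAAGT, was in the Ms4a6b and Ms4a6c windows and in 9.35% of all windows. In both genes 1 copy lies in the 48-base run, 86 bases before the start of Ms4a6b and 17 before that of Ms4a6c, and Ms4a6b has another copy on the opposite strand 43 bases before its start. TGANTCA (AP-1) was in 1 of the 2 Ms4a7 windows and in 7.81% of all windows. None of the member windows held TTGCNNAA (C/EBP, 10.8% of all windows), TGCTGAC (MAF, 4.67%), CACGTG (7.15%), TATAAA (13.6%) or the paired GAAA of the IRF site (3.44%). AGGTCA, the repeat unit of sites for retinoic acid and liver X receptors, was in none of them and in 16.3% of all windows, so no member window held it as a direct repeat spaced by 5, 2 or 4 bases.

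All 4 members were highest in serum-free medium, intermediate with retinoic acid and lowest in serum. Leaving out serum went with values 2.30-fold to 4.11-fold higher, and retinoic acid in serum-free medium with values 1.48-fold to 2.83-fold lower. With the members included, the order serum-free over retinoic acid over serum was found in 439 genes. These are 4.32% of the genes with a value at or above the floor in serum-free or serum medium. This floor, a log2 value of 7.12 (intensity 140), is the median over all genes and arrays.

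Ms4a6d had an intensity of 272 with retinoic acid, 770 in serum-free medium and 193 in serum, or 8.09, 9.59 and 7.59 on the log2 scale. It was above the floor on every array. Its value was 3.99-fold higher in serum-free medium than in serum and 2.83-fold lower with retinoic acid than without it. The retinoic acid array was thus 1.41-fold above the serum array, the smallest such ratio of the 4 members.

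Ms4a6c, a close relative of Ms4a6b and Ms4a6d, had an intensity of 224 with retinoic acid, 446 in serum-free medium and 108 in serum. On the log2 scale these are 7.80, 8.80 and 6.76, and the serum value lies under the floor. The serum-free value was 4.11-fold above serum. With retinoic acid it was 1.996-fold lower, a log2 difference of -0.997 that stops just short of 2-fold.

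Ms4a6b had an intensity of 103 with retinoic acid, 153 in serum-free medium and 66.5 in serum. These are 6.69, 7.26 and 6.06 on the log2 scale, so the serum-free array alone reached the floor. The serum-free value was 2.30-fold above serum and the retinoic acid value 1.48-fold below serum-free, the smallest difference of the 4 members in both comparisons. A low intensity holds more background, which leaves the size of these ratios uncertain. When 32 was added to each intensity to damp low values, the log2 difference between serum-free and serum medium was 0.91 in place of 1.20.

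Ms4a7 had an intensity of 141 with retinoic acid, 262 in serum-free medium and 65.8 in serum. On the log2 scale these are 7.14, 8.04 and 6.04, and the retinoic acid value lies just at the floor. The serum-free value was 3.99-fold above serum, as in Ms4a6d, but with retinoic acid it was only 1.86-fold lower. Retinoic acid explants stayed 2.15-fold above serum, the highest such ratio of the 4 members, against 1.41-fold in Ms4a6d. On the log2 scale, the difference between retinoic acid and serum was 24.9% of that between serum-free medium and serum for Ms4a6d, and between 51.1% and 55.2% for the other members.

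**Figure D1:**
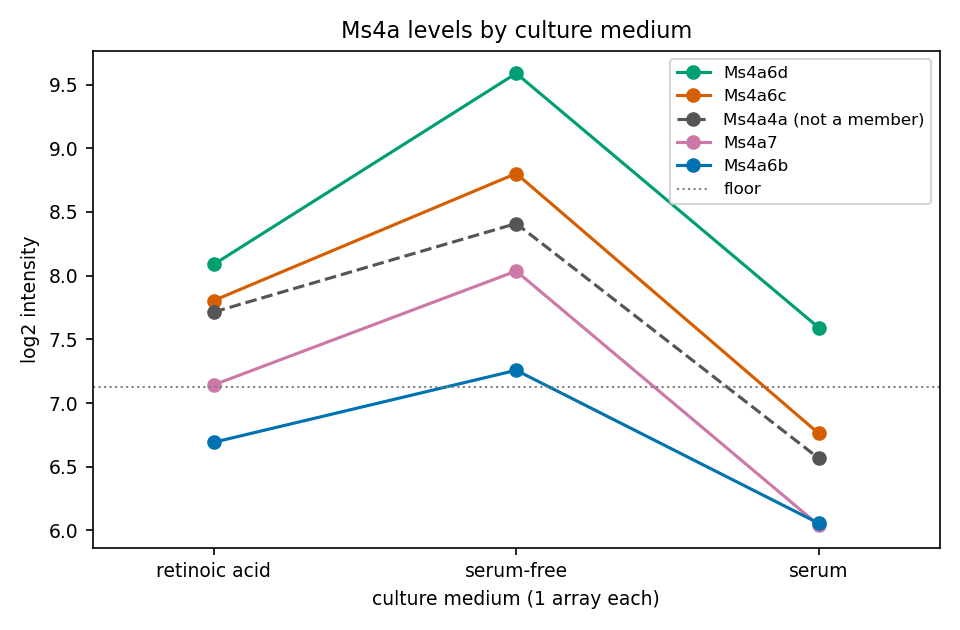
Log2 intensity (vertical axis) of the 4 members and of Ms4a4a, another gene of the family, in each culture medium (horizontal axis, 1 array each). Points are single arrays, lines join the points of a gene, and the dotted line is the floor of 7.12. Every gene peaks in serum-free medium, and Ms4a6d has the steepest step between the retinoic acid array (8.09) and the serum-free array (9.59).

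As counts, a gene was taken as higher or lower when it differed at least 2-fold and reached the floor on at least 1 of the arrays compared. Of the members, 1 of 4 was lower with retinoic acid than in serum-free medium (Ms4a6d) and 0 were higher, where 0.613% of 10111 genes were lower and 1.05% higher. In serum-free medium against serum 4 of 4 were higher and 0 lower, where 0.876% of 10156 genes were higher and 0.699% lower. In retinoic acid against serum 3 of 4 members reached the floor, and 2 of these were higher (Ms4a6c and Ms4a7) and 0 lower, where 1.04% of 10169 genes were higher and 0.816% lower. With 32 added to the intensities Ms4a6c and Ms4a7 were under 2-fold in this last comparison, at 0.86 and 0.82, and median scaling of the arrays put Ms4a6c at 0.99. Quantile scaling put Ms4a6c at -1.01 in retinoic acid against serum-free medium, past 2-fold. These counts describe values by which the genes were chosen. In serum-free medium against serum, Ms4a6c, Ms4a6d and Ms4a7 had the 2nd, 3rd and 4th largest increases of the 10156 genes, and Ms4a6b the 62nd. In retinoic acid against serum-free medium, Ms4a6d had the 22nd largest decrease of 10111 genes, Ms4a6c the 64th, Ms4a7 the 83rd and Ms4a6b the 214th. The pair of comparisons shares the serum-free array, so a high value on that array alone would move both at once.

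Of the 19 Ms4a genes measured, 5 reached the floor on any array, the 4 members and Ms4a4a. In human macrophages MS4A4A is known as a partner of the receptor dectin-1. Ms4a4a had an intensity of 210 with retinoic acid, 340 in serum-free medium and 94.8 in serum, or 7.71, 8.41 and 6.57 on the log2 scale. It followed the members' order, 3.59-fold higher in serum-free medium than in serum and 1.62-fold lower with retinoic acid than without. The other 14 genes lay under the floor on all arrays, with log2 values from 2.57 to 6.25, and 9 of them had exactly equal values on all 3 arrays. Exact ties are common at such levels with this array method: they were found in 56.6% of the 9697 genes under the floor throughout, and are no measure of equal expression. None of the 14 differed by more than 0.38 on the log2 scale in any comparison.

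Ms4a1 had the largest difference of these, at 3.78 with retinoic acid, 4.11 in serum-free medium and 3.72 in serum. Ms4a10 had the highest levels of the 14, at 6.25 with retinoic acid and 6.15 on both other arrays, followed by Ms4a8a at 6.20 and Ms4a15 at 6.12 on every array. Ms4a12 (4.36 to 4.40) and Ms4a13 (3.91 to 4.06) were slightly lower in serum than on the other arrays, and Ms4a5 (3.30), Ms4a20 (2.72) and Ms4a19 (2.57) were level. Ms4a2 stood at 4.09 on each array, and Ms4a3, a gene of granulocyte and monocyte progenitors, at 4.36, 4.47 and 4.36 in the same order of media. Along the chromosome the 5 genes with signal are not a single block. Ms4a7 and Ms4a4a are neighbours among the measured genes, Ms4a4c and Ms4a4b (3.23 and 3.26 on every array) separate them from the adjoining Ms4a6c and Ms4a6b, and Ms4a4d (3.84 on every array) separates Ms4a6b from Ms4a6d. How far probes of these related genes can bind each other's transcripts was not tested. Tmem176a and Tmem176b, more distant relatives of the family, were well above the floor and nearly level, at log2 differences of -0.29 and -0.16 with retinoic acid against serum-free and 0.10 and 0.02 in serum-free medium against serum.

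**Figure D2:**
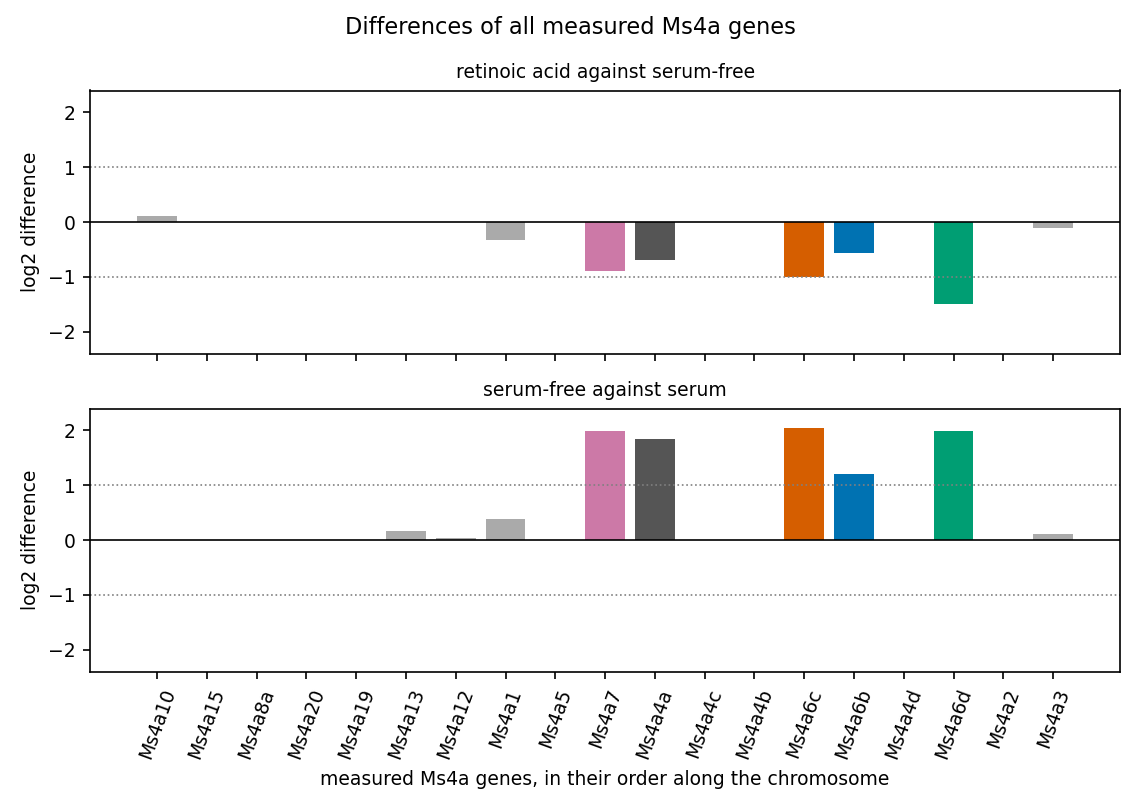
Log2 differences (vertical axes) of the 19 measured Ms4a genes in their order along chromosome 19 (horizontal axis), for retinoic acid against serum-free medium (top) and serum-free medium against serum (bottom). Coloured bars are the 4 members, the dark bar is Ms4a4a, light bars are the other genes, and dotted lines mark 2-fold. The 5 genes with signal differ in opposite directions in the 2 panels, from 1.20 to 2.04 below and from -0.57 to -1.50 above, while no other gene passes 0.38.

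To place the members among the cells of the explant, their values were set beside lists of marker genes. The tissue matched its label: all 9 kidney markers, among them the nephron progenitor gene Six2, the ureteric gene Ret and the stromal gene Foxd1, had log2 values from 8.42 to 11.37. Of 21 measured macrophage identity genes, 16 reached the floor on at least 1 array. The growth factor receptor gene Csf1r, on which macrophages depend, was at 9.28 with retinoic acid, 9.08 in serum-free medium and 7.74 in serum. Spi1, which encodes PU.1, was at 8.44, 8.96 and 7.36 in the same order, and the lysosomal gene Cd68 at 9.54, 10.70 and 8.77. The fractalkine receptor gene Cx3cr1 was at 8.50, 8.76 and 7.57, Adgre1 (F4/80) at 7.89, 8.65 and 7.47, and the lysozyme gene Lyz2 at 9.83, 10.38 and 9.27. Ptprc (CD45) and Aif1 (Iba1) stayed under the floor on all arrays, as did Cd14, Itgam and Csf2rb.

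The summed intensity of the 21 macrophage identity genes was 10290 with retinoic acid, 13650 in serum-free medium and 5473 in serum, so these genes followed the members' order as a sum. In serum-free medium against serum, 14 of the 21 were at least 2-fold higher and 0 lower, with a median log2 difference of 1.19. The 4 members had a median of 1.996, and it was 0.00 for all genes tested. The complement genes C1qc and C1qb were 1.86 and 1.69 higher and Spi1 1.59 higher. Ms4a6c, Ms4a6d and Ms4a7 each exceeded all 21 identity genes, of which Cd68 came nearest at 1.94, while Ms4a6b lay within their range. With 32 added to the intensities this ranking did not hold. Cd68 was then at 1.86, Ms4a6d at 1.83, Ms4a6c at 1.77 and Ms4a7 at 1.59. In RNA of whole explants, a change in the number of macrophages and a change in RNA per macrophage cannot be told apart.

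With retinoic acid against serum-free medium, the same list had a median of -0.26, with 1 gene (Cd68, -1.16) at least 2-fold lower and 0 higher. The members' median was -0.95 and that of all genes tested 0.00. Ms4a6d was lower than all 21 identity genes, Ms4a6c and Ms4a7 were lower than 20 of them, and Ms4a6b was lower than 17. After Cd68, the identity genes with the largest differences were Adgre1 at -0.77, Laptm5, a lysosomal gene of blood cells, at -0.59, and Lyz2 at -0.55. Csf1r differed by 0.20 and the complement gene C1qa by 0.06. The macrophage genes thus differed by unequal amounts between these 2 arrays.

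Set against serum, the retinoic acid array had 7 of the 21 identity genes at least 2-fold higher and 0 lower, with a median of 0.78. The members' median was 0.84, and it was -0.01 for all genes tested. Here the members were spread through the list: Ms4a7 was passed by 6 identity genes, Ms4a6c by 7, Ms4a6b by 12 and Ms4a6d by 14. The genes with the largest differences from serum were Csf1r at 1.54, the Fc receptor gene Fcgr3 at 1.49 and C1qa at 1.46, each of them above the 1.102 of Ms4a7.

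**Figure D3:**
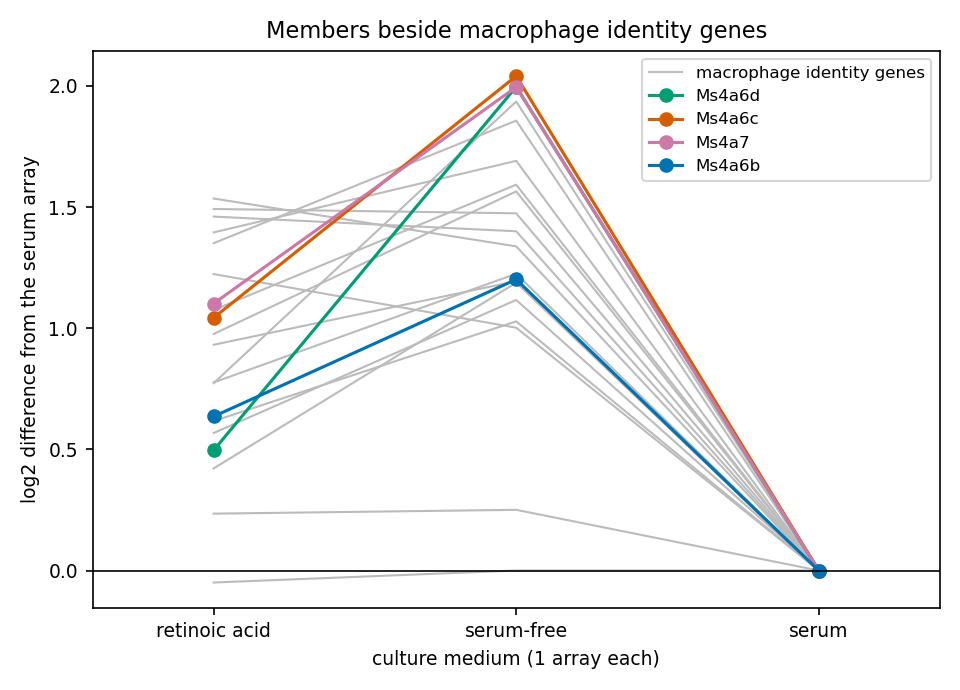
Log2 difference from the serum array (vertical axis) in each culture medium (horizontal axis, 1 array each) for the 4 members in colour and for the 16 macrophage identity genes that reached the floor in grey. Ms4a6c, Ms4a6d and Ms4a7 top the serum-free values, at 1.996 to 2.041, whereas with retinoic acid Ms4a6d, at 0.50, lies below most of the grey lines.

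Genes of phagocytic and lipid-laden macrophages had a summed intensity of 20450 with retinoic acid, 26250 in serum-free medium and 12630 in serum over 13 genes. Apoe, Ctsb and Ctsd had the highest values of the 13 on every array and so weigh most in these sums. In serum-free medium their log2 values were 12.48, 12.20 and 12.06. How much of their signal came from macrophages was not tested. With retinoic acid against serum-free medium 2 of 13 were at least 2-fold lower, and the median was -0.32. These were Gpnmb, a glycoprotein gene of phagocytes, at -1.54 and the scavenger receptor gene Cd36 at -1.29. The galectin gene Lgals3 differed by -0.97 and the lipase gene Lpl by -0.88. In serum-free medium against serum 4 of 13 were higher and the median was 0.90, with Gpnmb at 2.16, Lgals3 at 1.99, Cd36 at 1.88 and the lipid carrier gene Apoe at 1.54. Gpnmb alone of the 13 passed Ms4a6d in both comparisons.

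Genes listed for tissue-resident and border macrophages went both ways. Sall1 of this list is also among the kidney markers, with log2 values of 9.11 with retinoic acid, 9.29 in serum-free medium and 9.40 in serum. The list's values therefore cannot be assigned to macrophages alone, and which cells made each transcript was not tested. Over 18 genes the median was 0.00 with retinoic acid against serum-free medium and 0.07 in serum-free medium against serum (-0.0029 with median scaling of the arrays), and 8 genes, Cd163, Folr2 and Siglec1 among them, were under the floor on every array. The mannose receptor gene Mrc1 resembled the members, at -1.02 with retinoic acid against serum-free and 1.95 in serum-free against serum. The phosphatidylserine receptor gene Timd4 was 1.74 higher with retinoic acid and the platelet factor gene Pf4 1.07 higher, so that 2 genes of this list were higher and 1 was lower. With 32 added to the intensities Timd4 alone passed 2-fold, at 1.51, while Pf4 was at 0.83 and Mrc1 at -0.89. The prostaglandin-degrading enzyme gene Hpgd differed by -0.94. Stab1, a scavenger receptor gene also made by endothelium, was 1.15 higher in serum-free medium than in serum, and Maf and Dab2 differed by 0.54 and 0.20.

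Several genes of the list of Ms4a partners and signalling stayed under the floor. Vsig4, the partner of Ms4a6d, was at 3.74 on every array, Nlrp3 at 4.77 and Tnfrsf18 at 5.47, and Il1b was between 4.65 and 4.67. Of 10 genes measured in this list 5 reached the floor, and 4 of the 10 were at least 2-fold higher in serum-free medium than in serum. They were Clec7a (dectin-1) at 1.85, the lipid receptor gene Trem2 at 1.72, and 2 genes of signalling chains, Fcer1g at 1.65 and Tyrobp at 1.57. The list's median over all 10 was 0.03. With retinoic acid against serum-free medium none of the 10 differed 2-fold, and the median was 0.00. Fcer1g, Trem2 and Tyrobp differed by -0.78, -0.76 and -0.71, between Ms4a6b (-0.57) and Ms4a7 (-0.89). Clec7a ran opposite to the members, 0.88 higher with retinoic acid than without it, and the kinase gene Syk was at 7.37 on both arrays.

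Markers of other blood cells gave little signal. All 12 neutrophil and myeloid progenitor genes, all 8 measured T and NK cell genes and all 8 dendritic cell genes were under the floor on every array. Their summed intensities were 423, 233 and 418 with retinoic acid, 442, 235 and 422 in serum-free medium, and 460.5, 234 and 402 in serum. Of the mast cell genes 6 of 8 were under the floor, Cpa3 and Fcer1a among them. The other 2, Gata2 (1.14 higher with retinoic acid than without) and Kit (-0.25), are also genes of embryonic kidney. Of 7 B cell genes 5 were under the floor, Cd79a and Pax5 among them, and the other 2, Cd79b and Ebf1, differed by -0.31 and -0.27 with retinoic acid. Of 10 monocyte genes 7 were under the floor, Ccr2 among them. The 3 with signal, Plac8, Vcan and Fn1, are genes with wider expression and differed by at most 0.36 between media in either comparison.

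**Figure D4:**
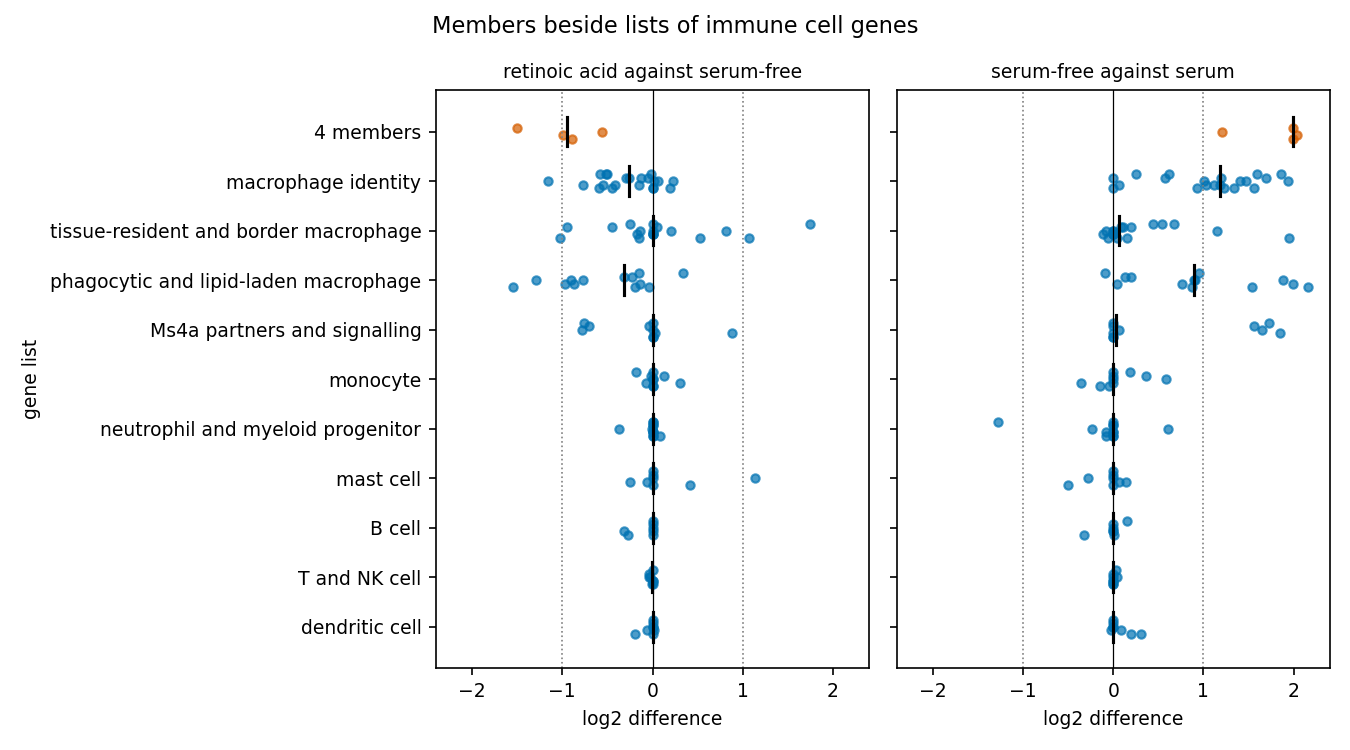
Log2 differences (horizontal axes) of the 4 members and of each measured gene of 10 immune gene lists (rows), for retinoic acid against serum-free medium (left) and serum-free medium against serum (right). Each point is a gene, black bars are medians over all measured genes, dotted lines mark 2-fold, and points are spread vertically only to separate them. The members' medians (-0.95 and 1.996) lie beyond those of every list shown, and the lists of neutrophil, mast, B, T and dendritic cell genes have medians of 0.00 in both panels.

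The genes most like the members were sought among 10241 genes that reached the floor on any array. Likeness was the Euclidean distance between pairs of log2 differences, serum-free minus serum and retinoic acid minus serum-free, over the 3 arrays. The members' mean pair was 1.81 and -0.99. The 8 nearest genes were Mrc1 (distance 0.15), the interleukin receptor gene Il10ra (0.17), the ectonucleotidase gene Entpd1 (0.18), Lgals3 (0.18), Cd68 (0.21), the Toll-like receptor homologue Cd180 (0.23), Trem2 (0.24) and Plek, a gene of blood cells (0.24). Ms4a4a came 10th among the non-members at 0.30, and the median distance over all genes searched was 2.07. A gene level on all arrays lies about that far from the members' pair, so 2.07 follows from the choice of members. Both differences of a pair use the serum-free array. Ms4a7 and Ms4a6c lay at 0.21 and 0.23 from the mean, Ms4a6d at 0.54 and Ms4a6b at 0.74.

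Each member also had its own nearest genes. Those of Ms4a6d were Gpnmb (0.17), Cd36 (0.23) and Cd68 (0.34). Those of Ms4a6c were Lgals3 (0.05), Mrc1 (0.09) and Cd180 (0.19), and the same 3 genes were nearest to Ms4a7, at 0.08 for Lgals3, 0.13 for Mrc1 and 0.08 for Cd180. Ms4a6b had other neighbours, Apobec1, which encodes an RNA-editing enzyme (0.03), Fam124b (0.05) and the developmental gene Mab21l2 (0.06). With 3 arrays these distances describe the arrays only.

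Transcripts that depend on the sex of the embryos also differed between the arrays. Xist, of the inactive X chromosome, was at 9.79 with retinoic acid, 11.48 in serum-free medium and 10.84 in serum, and the Y-linked gene Kdm5d at 8.40, 7.21 and 7.74. The Y-linked genes Eif2s3y (8.64, 7.46 and 8.38) and Uty (8.38, 7.29 and 7.93) had the same order as Kdm5d, the reverse of Xist. Xist was thus highest in serum-free medium, as the members were, but lowest with retinoic acid, where the members were intermediate. A difference in the embryos' sex and an effect of the medium cannot be told apart here.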

How the data were processed

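Total RNA of explants grown in 3 media was labelled from 250 ng and hybridised to 1 array per medium, per the labels' protocols. The deposited values are intensities on a linear scale, from 3.84 to 17250, made by the authors with Affymetrix Expression Console 1.1 and RMA, per the submitters' processing notes. Their settings are not given in the sources at hand. RMA subtracts background, equalises the arrays by quantiles and combines probes by median polish, which often returns tied values.

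The log2 of the intensities was taken with no pseudocount. Of 35556 probe sets, 21789 carried 1 symbol in the platform annotation, and the one with the highest mean stood for each of 19938 genes. Gene identifiers of 19856 genes matched RefSeq, all with the same symbol. With 1 array per medium no p-value was computed. Members and lists were chosen with earlier results of these data known. Some list genes are not reported here, and counts are over the list genes analysed.

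Named were every measured Ms4a gene, up to 4 genes per immune list with the largest difference in each of 2 comparisons, 8 defining macrophage genes, and the nearest genes in pattern. Under-floor genes, other list genes that were nearly level, Sall1, C1qa, Fcgr3, Ctsb, Ctsd, Kdm5d, Eif2s3y, Uty and Xist were named after their values were seen. Promoter windows were aligned globally with Biopython 1.88, with free end gaps. Protein sequences were not used here. Counting and the likeness search were tested on simulated data. Scalings used limma 3.58.1 in R 4.3.3, and the rest Python 3.11.15.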

Additional observations from a re-analysis of the deposited data

How the results depend on the processing

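Of 60 values of member differences under 5 alternatives, 54 kept their direction and their side of 2-fold, and moved by less than 0.28 to 0.33, the 95th percentile of the disagreement between probe sets of 1 gene in each comparison. None changed direction. With 32 added to the intensities, Ms4a6b in serum-free medium against serum became 0.91 and Ms4a7 became 1.59. In retinoic acid against serum Ms4a6c became 0.86 and Ms4a7 0.82, and the count of Ms4a genes at least 2-fold higher became 0, against 3 without the addition (with Ms4a4a). Over all genes this count became 84, against 106 without the addition. Median scaling put Ms4a6c at 0.99 in that comparison. Quantile scaling put Ms4a6c at -1.01 in retinoic acid against serum-free medium, which made 2 Ms4a genes lower in place of 1 (all genes: 64 in place of 62). These calls lie close to 2-fold, and the 3 scalings moved no member difference by more than 0.07. At 1.5-fold in place of 2-fold, 4 Ms4a genes were lower with retinoic acid against serum-free medium, those with signal other than Ms4a6b. Of 10111 genes in that comparison, 244 were then higher and 196 lower. In serum-free medium against serum 204 of 10156 genes were higher and 210 lower, and in retinoic acid against serum 250 of 10169 were higher and 289 lower. Each member has 1 probe set, so averaging probe sets changed no member. Of 228 counts and medians of the Ms4a-related and 3 macrophage lists, 216 stayed within 1.5 times the count or within the disagreement between probe sets. Of the 12 that moved, 8 were counts at 1.5-fold, 3 counts with 32 added and 1 a count under median scaling. Medians near 0 changed sign in 2 cases, both in serum-free medium against serum under median scaling: -0.0071 for the Ms4a-related list, against 0.06, and -0.0029 for the tissue-resident list, against 0.07. No paired analysis was possible because there is 1 array per medium. Signal over background limits Ms4a6b most, since 1 of its 3 values reached the floor.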
